A study of Homo sapiens with 6 samples.

Results

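Mitochondrial ribosomes make the proteins that the mitochondrial genome encodes, which are core subunits of the respiratory chain and of ATP synthase. Their RNA comes from the mitochondrial genome, while their proteins are encoded in the nucleus, made in the cytosol and imported. The proteins form a large subunit, which joins amino acids into a chain, and a small subunit, which reads the mRNA. Some descend from proteins of the bacterial ribosome and others are found in mitochondria alone. Their genes carry the symbols MRPL (large) and MRPS (small).

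The genes described here were the protein-coding entries whose symbol is MRPL or MRPS followed by a number, 78 of the 58735 genes listed. Of these, 49 were MRPL and 29 were MRPS genes. They were measured by RNA-seq in HCT116, a human colorectal carcinoma cell line with epithelial features. The cells had been transfected with a control (CTR, 3 libraries) or with mimics of the microRNA miR-8485 (3 libraries) at 50 nM, and were collected 48 h after transfection. The study calls the 3 libraries of a group independent biological replicates, and both groups come from the same line. The sequence and dose of the control transfection are not given in the sources used here. The values are FPKM, in which the fragments of a gene are divided by gene length and library size, so that each is a share and a rise cannot be told from a fall of other genes.

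The epithelial markers EPCAM (127 to 148 FPKM), KRT8 (543 to 873) and KRT18 (286 to 609) were high in all 6 libraries. The libraries held 17473874 to 18480047 fragments on listed genes. The chi-square per gene between libraries, near 1 for sampling noise alone, was 2.68 to 9.60 within groups and 54.4 to 62.4 between groups. CTR replicate 1 stood furthest from its own group, at 9.60 and 7.74 from the other control libraries. The genes of the mitochondrial ribosome took 0.458% to 0.515% of the fragments of a library. A mean FPKM of 1 or more was reached by 12349 genes, and of these 29.1% were higher and 30.5% lower with the mimic at an adjusted p under 0.05 (limma, Benjamini-Hochberg adjustment over these genes).

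A miRNA recognizes an mRNA mainly through its seed, the bases 2 to 8 from its 5′ end. The mimic is shown first, with its seed in capitals, as the study's methods give it. After it stand stretches of 30 bases of 3′ UTR around the first match to the seed, with the matching letters in capitals. They are from GRCh38 with the GENCODE release 44 annotation and read 5′ to 3′ on the strand of the gene. The first 4 are from genes with more than 1 match in the transcript tagged as canonical. The last, MRPS27, is shown because it fell the most, and its match lies in its longest annotated 3′ UTR but not in its canonical one. This match also lies beyond the 3′ end of the gene as listed with the values (chr5:72219409-72320646). It is thus not part of the gene that was counted.
miR-8485 mimic: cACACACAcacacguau
MRPS33, chr7:141005970-141005999, minus strand: tcacaaacttTGTGTGTGTcttcacctact
MRPL28, chr16:367375-367404, minus strand: gggccaggcTGTGTGTGTGTatctttgctt
MRPL42, chr12:93501685-93501714, plus strand: acatctcttttTGTGTGTctactgtgattt
MRPS25, chr3:15049528-15049557, minus strand: ctccagaaacaTGTGTGTggcttccctacc
MRPS27, chr5:72215361-72215390, minus strand: gacaggcactcTGTGTGTcttgttcatggt

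Fewer of these genes than of protein-coding genes at large held a match to the seed. The canonical 3′ UTR held TGTGTGT, the complement of the seed, in 11 of the 78 genes (14.1%), against 3081 of 10665 protein-coding genes tested (28.9%). The 3′ UTRs were also shorter, with a median of 464 bases against 1287. In the longest annotated 3′ UTR, the shares were 17.9% and 30.2%. Matches are counted with overlap, so that 1 stretch of alternating T and G can hold several. Which 3′ UTRs the cells use was not measured.

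The second set of sequences is shared by many of the promoters. The letters AAGATGGC, the core of the motif of the transcription factor YY1, occurred on either strand in 20 of the 69 member promoters matched in RefSeq (29.0%). The same letters occurred in 5.74% of the 8567 promoters of tested genes and in 3% of all 27305 promoters. A promoter here is the stretch from 250 bases before to 50 bases after the start of a gene (RefSeq, GRCh38.p14). In 15 of the 69 promoters (21.7%) the letters lay after the gene start and on its strand, against 3.48% of tested genes. In 12 of these genes the ATG inside the motif was an annotated start codon, so the letters also code for the first residue of the protein. The examples are the gene that fell the most, a pair of paralogs that moved in opposite directions, the gene that was close to undetected, and a gene with 2 copies before its start. Capitals mark the motif, and each is read on the strand of its gene.
MRPS27, chr5:72320206-72320235, minus strand: tggtacgctccAAGATGGCtgcctccatag
MRPS18A, chr6:43687764-43687793, minus strand: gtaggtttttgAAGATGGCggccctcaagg
MRPS18B, chr6:30617852-30617881, plus strand: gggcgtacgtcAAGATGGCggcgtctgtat
MRPS24, chr7:43869480-43869509, minus strand: ccgcttggcccAAGATGGCggcctccgtgt
MRPL52, chr14:22829778-22829807, plus strand: tacgatgacccAAGATGGCggagccgtgat

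The other motifs searched differed less from the promoters of tested genes. On either strand, the core of NRF1, GCGCATGC, was in 6 of 69 promoters (8.70%, against 5.64%). The core of the ETS family, CCGGAAGT, which includes GABP, was in 11 (15.9%, against 9.51%). The E-box CACGTG, the site of MYC and related factors, was in 9 (13%, against 10.2%). None of the motifs contains another, on either strand, and a match is a description of the letters, not of binding. MRPL2, MRPL10, MRPL13, MRPL15, MRPL21, MRPL23, MRPL35, MRPS28 and MRPS36 were not matched.

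The mitochondrial ribosomal protein genes lay on 21 chromosomes, and many lay close to other genes. The start of 27 of the 78 genes (34.6%) was within 1000 bases of the start of a protein-coding gene on the other strand, against 18.8% of tested protein-coding genes. MRPS11 and MRPL46 are such a pair, with starts 63 bases apart. At least 20% of the exonic bases were shared with other genes in 18 of the 78 (23.1%), against 9.45%. The sources used here do not state whether fragments were counted by strand. Where exons are shared, part of a value can therefore belong to a neighbor. A share of 20% or more is given beside the named genes concerned. Each share is over all other listed genes together. The gene and strand given with it are those of the neighbor with the largest part.

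Levels differed widely among genes whose proteins are parts of one particle. The median over the 78 genes of the mean FPKM in CTR was 22.3, against 6.11 over tested genes, and 63 of the 78 had a mean of at least 10 over the 6 libraries. The median was 23.6 for MRPL and 19.1 for MRPS genes in CTR. With the mimic the medians were 23.8 and 16.5, and 21.0 over the 78 genes. A median of levels can fall while most genes rise, and changes per gene are given below.

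MRPS34, a small-subunit protein found in mitochondria alone, had the highest level. It measured 98.1, 95.7 and 97.0 FPKM in the CTR libraries and 122, 121 and 109 FPKM with the mimic. The groups did not overlap, and the log2 fold change was 0.27 ± 0.05 (SE, adjusted p = 0.00335). The call was lost when the trend of fold change with GC content was removed (0.13, adjusted p = 0.0706) or the trend with gene length (0.06, adjusted p = 0.302). Of its exonic bases, 31.2% were shared with other genes, the largest part with EME2 on the other strand.

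MRPS26 and MRPL45 were next in level. MRPS26 measured 67.8, 53.6 and 61.5 FPKM in CTR and 72.9, 73.0 and 72.9 with the mimic (log2 fold change 0.27 ± 0.08, adjusted p = 0.0234). Its call was lost without CTR replicate 3 (adjusted p = 0.0518) and without any single one of the miR-8485 libraries (adjusted p = 0.0583 to 0.0598). MRPL45, which ties the ribosome to the inner membrane, measured 61.8, 62.6 and 57.3 FPKM in CTR and 68.7, 67.1 and 70.1 with the mimic (0.18 ± 0.05, adjusted p = 0.0126). Removing the length trend brought the fold changes of this pair to 0.06 and 0.02 and ended both calls (adjusted p = 0.458 and 0.717).

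MRPS24, a small-subunit protein of bacterial descent, was the one member below the limit on low values. It had 0, 6 and 2 fragments in CTR and 4, 4 and 1 with the mimic, and was not tested. Of its exonic bases, 23.2% were shared with other genes, the largest part with URGCP-MRPS24, a readthrough gene on the same strand. A count of 0 allows up to 3 fragments, so that a difference was not detectable at this depth. MRPL38 shares 45.1% of its exonic bases with other genes and MRPL46 11.3%, in both the largest part with a gene on the same strand. Whether such sharing lowered the counted fragments of MRPS24, MRPL38 or MRPL46 was not tested. MRPL46, at 0.911 to 1.03 FPKM in CTR and 1.03 to 1.14 with the mimic, and MRPL38, at 1.49 to 2.05 and 1.96 to 2.48, were the lowest tested. Their log2 fold changes of 0.16 ± 0.17 and 0.27 ± 0.15 did not pass the test (adjusted p = 0.456 and 0.159).

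With the mimic, more of the genes rose than fell, by small steps. Of the 77 tested, 33 rose (42.9%, against 29.1% of tested genes) and 11 fell (14.3%, against 30.5%), while 33 did not pass the test. The median log2 fold change was 0.14, and it was -0.0041 over all tested genes. The groups did not overlap for 37 genes that were higher and 12 that were lower. Among all tested genes, the libraries did not overlap in 32.5% (higher) and 34.0% (lower).

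How far rises outnumbered falls depended on the scale. With the values rescaled to TPM, each library's share of its summed FPKM, 21 rose and 19 fell, where 21.2% of tested genes rose and 38.3% fell. That scaling moved the median of all genes by -0.12, and the median of the members lay 0.14 above it. With the trend of fold change with gene length removed, 22 rose and 19 fell, where 29.2% and 30.1% of tested genes did. The median was then 0.04.

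**Figure D1:**
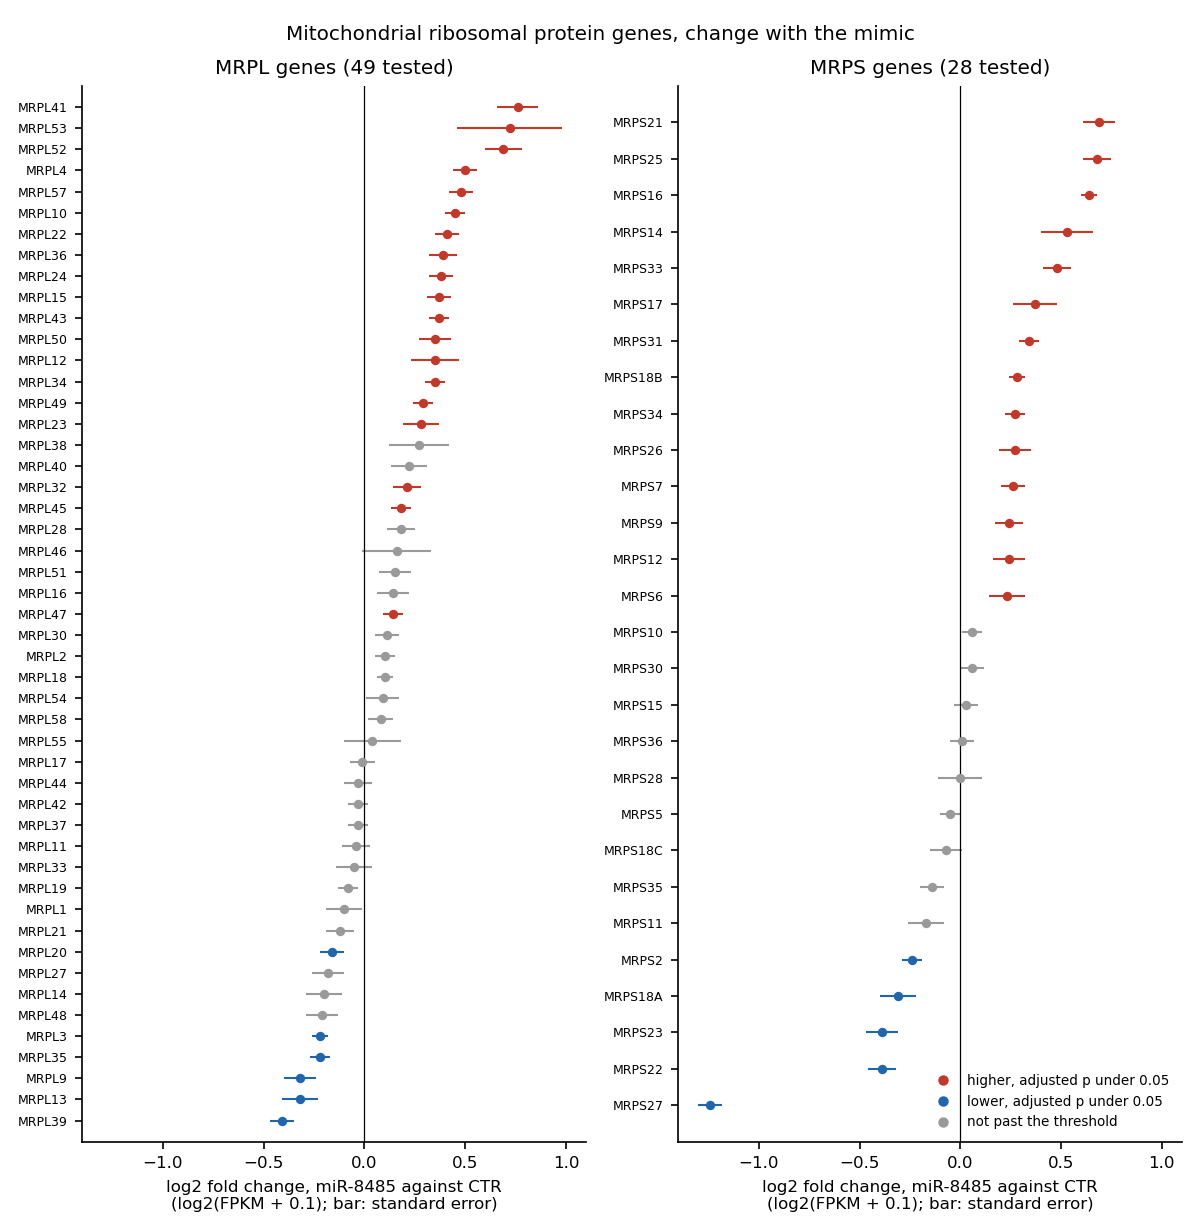
Log2 fold change of each tested MRPL gene (left) and MRPS gene (right), miR-8485 against CTR, with its standard error as a bar (3 libraries a group). Of the 77 genes, 33 are past the threshold to the right (red) and 11 to the left (blue), and 21 and 19 after rescaling to TPM. MRPS27, at -1.24, stands apart from the other genes.

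The medians of the large and the small subunit lay close together. Of the 49 MRPL genes, 19 rose (38.8%) and 6 fell (12.2%), with a median log2 fold change of 0.14. Of the 28 MRPS genes tested, 14 rose (50%) and 5 fell (17.9%), with a median of 0.15. After rescaling to TPM, 13 MRPL genes rose and 12 fell, and 8 MRPS genes rose and 7 fell.

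Relative to the mean of CTR, the median of the MRPL genes was 0.07, -0.02 and -0.05 in CTR libraries 1, 2 and 3, and with the mimic it was 0.14, 0.11 and 0.09. The median of the MRPS genes was 0.06, -0.02 and -0.05, and 0.20, 0.14 and 0.11. The groups did not overlap on either measure. The difference between the 2 medians, large minus small, was 0.01, 0.00 and 0.00 in CTR and -0.05, -0.03 and -0.01 with the mimic, less than the distance between control libraries within either subunit. CTR replicate 1 lay nearest to the miR-8485 libraries. Without it, 39 members rose and 10 fell, with a median of 0.20.

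Some symbols do not match the place of the protein. MRPS30 and MRPS18A are known to sit in the large subunit, and MRPS36 belongs to the alpha-ketoglutarate dehydrogenase complex. Grouped by place, the large subunit had 19 of 51 genes up and 7 down, with a median of 0.11, and the small subunit had 14 of 25 up and 4 down, with a median of 0.24. The large subunit thus lay 0.13 below the small one, and the change from the grouping by symbol came from 3 genes. MRPS30 measured 17.1, 15.2 and 15.4 FPKM in CTR and 16.0, 17.3 and 16.3 with the mimic, and MRPS36 measured 16.1, 16.2 and 14.4 and then 16.3, 15.1 and 15.4. For both, the groups overlapped, and the log2 fold changes of 0.06 ± 0.06 and 0.01 ± 0.06 did not pass the test (adjusted p = 0.435 and 0.940). MRPS30 passed it as higher with the GC trend removed (0.19, adjusted p = 0.0154), and MRPS36 as lower with the length trend removed (-0.17, adjusted p = 0.0303).

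**Figure D2:**
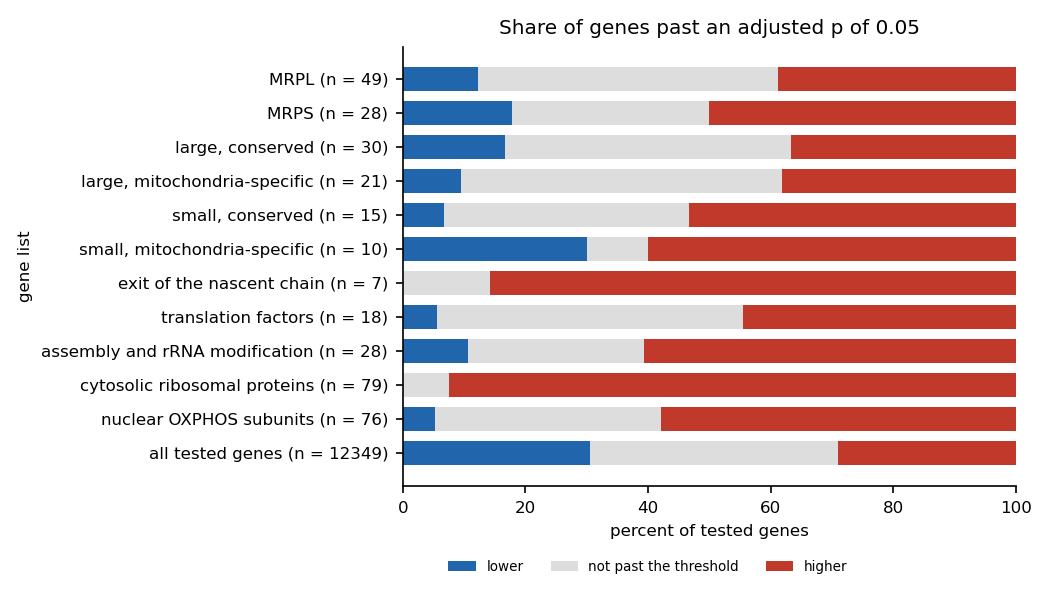
Share of the tested genes of each list that were lower (blue), higher (red) or not past an adjusted p of 0.05 (grey), with the number of genes tested. The share that rose is 38.8% for MRPL and 50% for MRPS genes, between 29.1% of all tested genes and 92.4% of cytosolic ribosomal protein genes, and the mitochondria-specific small-subunit genes hold the largest share that fell among these lists except for all tested genes.

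MRPS27, a small-subunit protein with pentatricopeptide repeats, fell the most of the members. The gene lies on the minus strand at chr5:72219409-72320646. It measured 17.9, 19.3 and 20.2 FPKM in CTR and 7.76, 8.27 and 8.10 in the miR-8485 libraries, from 2102 to 2385 fragments and from 908 to 1005. The groups lay far apart, with means of 19.1 ± 1.17 and 8.05 ± 0.258 (SD, n = 3 each). The log2 fold change was -1.24 ± 0.06, a ratio of 0.424 (adjusted p = 5.8e-06), and was between -1.36 and -1.15 under the alternative settings. Of its exonic bases, 1.41% are shared with other genes.

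The next largest falls in the small subunit were smaller, and came from MRPS22, MRPS23, MRPS18A and MRPS2. MRPS22, which belongs to the small subunit of mitochondria alone, measured 13.2, 12.8 and 12.2 FPKM in CTR and 9.46, 10.7 and 9.07 with the mimic. Its log2 fold change was -0.39 ± 0.07 (adjusted p = 0.00266). It shares 42.8% of its exonic bases with other genes, the largest part with COPB2. MRPS23, also found in mitochondria alone, measured 27.1, 22.4 and 23.4 and then 18.9, 19.4 and 17.3 (-0.39 ± 0.08, adjusted p = 0.00462). MRPS2, of bacterial descent, measured 40.4, 41.3 and 42.9 and then 36.8, 34.6 and 33.9 (-0.24 ± 0.05, adjusted p = 0.00356). The groups did not overlap in these genes, as the rule for naming them required.

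In the large subunit, MRPL39, a protein found in mitochondria alone, fell the most. It measured 30.9, 28.5 and 27.3 FPKM in CTR and 21.5, 22.3 and 21.5 with the mimic (log2 fold change -0.41 ± 0.06, adjusted p = 5.6e-04). The others were of bacterial descent: MRPL13 (-0.32, adjusted p = 0.0155), MRPL9 (-0.32, adjusted p = 0.00937), MRPL35 (-0.22, adjusted p = 0.00437), MRPL3 (-0.22, adjusted p = 0.00215) and MRPL20 (-0.16, adjusted p = 0.0378). MRPL3 had the highest level of these, at 67.1, 65.7 and 65.3 FPKM in CTR and 56.1, 58.2 and 56.1 with the mimic.

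Some of these falls rested on single libraries or settings. MRPL13 lost its call without miR-8485 replicate 2 (adjusted p = 0.0505) and with the GC trend removed (-0.18, adjusted p = 0.0927), which also ended that of MRPL35 (-0.11, adjusted p = 0.0665). MRPL20 lost its call without CTR replicate 1 (adjusted p = 0.0772) or 3 (0.0511) and without miR-8485 replicate 2 (0.111) or 3 (0.114). MRPL9 shares 36.0% of its exonic bases with other genes, the largest part with OAZ3.

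Among the rises, MRPL41, a large-subunit protein found in mitochondria alone, changed the most. It measured 52.4, 42.3 and 41.1 FPKM in CTR and 82.8, 71.1 and 74.7 with the mimic. The log2 fold change was 0.76 ± 0.10, a ratio of 1.69 (adjusted p = 5.0e-04). MRPL52, with 13, 11.2 and 10.7 FPKM and then 20.6, 18.3 and 17.3, rose by 0.69 ± 0.09 (adjusted p = 4.9e-04). Neither shares exonic bases with another gene, and non-overlapping groups were a condition for naming them.

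MRPL4 and MRPL10, of bacterial descent, and the mitochondrial MRPL57 followed. MRPL10, which forms the stalk that binds translation factors, measured 36.8, 40.5 and 36.4 FPKM in CTR and 51.3, 52.0 and 51.7 with the mimic (log2 fold change 0.45 ± 0.05, adjusted p = 2.3e-04). The change was 0.50 ± 0.06 for MRPL4 (adjusted p = 2.2e-04) and 0.48 ± 0.06 for MRPL57 (adjusted p = 3.2e-04). MRPL4 shares 21.3% of its exonic bases with other genes, the largest part with LIMASI on the other strand. MRPL53 showed 0.72 ± 0.26 (adjusted p = 0.0454) on few fragments, 33 to 67 in CTR and 72 to 101 with the mimic. It shares 72.8% of its exonic bases with other genes, the largest part with CCDC142 on the same strand. Its call was lost in 10 of 17 alternatives. Among them were the fits without CTR replicate 2 (0.82, adjusted p = 0.0536) or 3 (0.42, adjusted p = 0.0755). So were those without miR-8485 replicate 1 (0.68, adjusted p = 0.113) or 2 (0.60, adjusted p = 0.132).

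In the small subunit, MRPS21 and MRPS16, both of bacterial descent, and MRPS25, found in mitochondria alone, rose the most. MRPS21 measured 40.0, 37.8 and 31.9 FPKM in CTR and 59.7, 59.2 and 57.4 with the mimic (log2 fold change 0.69 ± 0.08, adjusted p = 2.9e-04). MRPS16 measured 22.7, 22.9 and 22.6 and then 34.3, 35.6 and 36.6 (0.64 ± 0.04, adjusted p = 2.0e-05). MRPS25 measured 5.62, 5.29 and 5.10 and then 9.31, 8.47 and 8.05 (0.68 ± 0.07, adjusted p = 1.6e-04).

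These 3 genes were past the threshold under every alternative setting. In each the lowest miR-8485 library was above the highest control library, as the rule for naming them required. MRPS25 shares 39.1% of its exonic bases with other genes, the largest part with NR2C2 on the other strand. MRPS14, of bacterial descent, followed at 0.53 ± 0.13 (adjusted p = 0.00897), then MRPS33 at 0.48 ± 0.07 (adjusted p = 8.9e-04) and MRPS17, at 3.79 to 4.76 FPKM in CTR and 4.99 to 6.03 with the mimic, at 0.37 ± 0.11 (adjusted p = 0.0199). MRPS17 shares 25% of its exonic bases with other genes, the largest part with an unnamed gene on the same strand. Its call was lost without CTR replicate 3 (adjusted p = 0.0546) and without miR-8485 replicate 1 (0.0685) or 2 (0.0647).

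**Figure D3:**
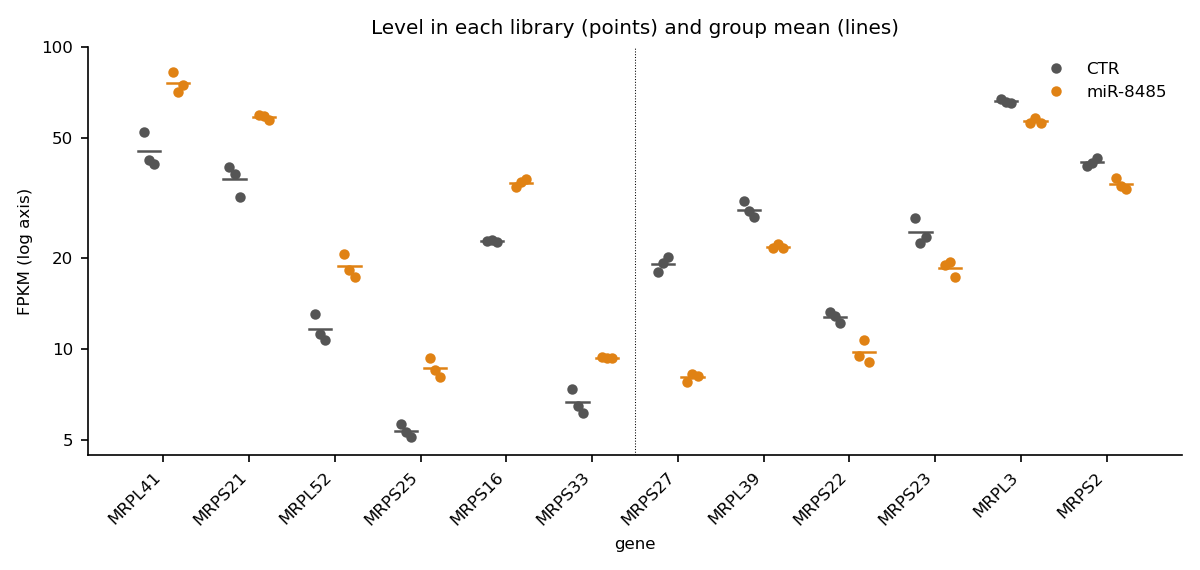
FPKM (log axis) of 12 members in each library, CTR in grey and miR-8485 in orange, with the group means as lines. The 6 genes left of the dotted line rose and the 6 to the right fell. All 12 were chosen among genes whose groups do not overlap, and MRPS27 shows the widest gap, from 17.9 to 20.2 FPKM down to 7.76 to 8.27.

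Of the 11 genes with a match to the seed in the canonical 3′ UTR, 4 rose (36.4%) and 1 fell (9.09%). Of all tested genes, 29.1% rose and 30.5% fell. The median log2 fold change of the 11 was 0.11. Of the 66 other members tested, MRPS27 among them, 29 rose (43.9%) and 10 fell (15.2%), with a median of 0.14. After rescaling to TPM, 4 of the 11 rose (36.4%, against 21.2% of all tested genes) and 3 fell (27.3%, against 38.3%). The median of the 11 was then -0.01. MRPS33, with 5 matches in 3 stretches the most of any member, measured 7.36, 6.48 and 6.14 FPKM in CTR and 9.39, 9.29 and 9.29 with the mimic, so that its groups lay apart and it was higher. MRPS25, with 2 separate matches, was among the largest rises.

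MRPL28, with 3 overlapping matches in 1 stretch, and MRPL42, with 3 separate ones, showed log2 fold changes of 0.18 (adjusted p = 0.0606) and -0.03 (adjusted p = 0.630). MRPL48, with 2 matches, was lower with groups that did not overlap, at 7.90, 6.72 and 6.53 FPKM in CTR and 6.03, 6.24 and 5.89 with the mimic. Its log2 fold change of -0.21 ± 0.08 just missed the threshold (adjusted p = 0.0529) and was past it after rescaling to TPM (-0.33, adjusted p = 0.0176). MRPL35, with 1 match, was the one that passed the test as a fall.

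The members were also split into proteins classed as conserved in bacterial ribosomes and those classed as mitochondrial. MRPS18A and MRPS18B, paralogs of bacterial protein S18, are counted with the mitochondrial ones. MRPS18A is among the falls of that class and MRPS18B among its rises. In the large subunit, with MRPS30 and MRPS18A counted there, 11 of 30 conserved proteins (36.7%) and 8 of 21 mitochondrial ones (38.1%) rose. Of all tested genes, 29.1% rose. Falls numbered 5 (16.7%) and 2 (9.52%), against 30.5%. The medians were 0.10 and 0.16. For the conserved proteins, falls outnumbered rises after rescaling to TPM (7 up, 9 down, median -0.02) and with the length trend removed (7 up, 10 down, median -0.06), and for the mitochondrial ones the counts were 6 up and 4 down, and 6 up and 3 down. In the small subunit, 8 of 15 conserved proteins tested rose and 1 fell (median 0.23), and 3 rose and 2 fell after rescaling to TPM. Of the 10 mitochondrial ones, 6 rose and 3 fell (median 0.27), and the 3 were MRPS27, MRPS22 and MRPS23. Of these 10, 5 rose and 4 fell after rescaling to TPM, and with the length trend removed 4 rose and 4 fell.

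By place in the large subunit, the proteins around the exit of the nascent chain held 6 called rises. Of MRPL17, MRPL22, MRPL23, MRPL24, MRPL32, MRPL45 and MRPL47, 6 of 7 rose and 0 fell (29.1% and 30.5% of all tested genes), with log2 fold changes from -0.01 to 0.41. The exception, MRPL17, measured 24.9 to 27.7 FPKM in CTR and 24.9 to 27.4 with the mimic. After rescaling to TPM, 2 of the 7 rose, and the same number did with the length trend removed. MRPL47, MRPL32 and MRPL23 passed narrowly (adjusted p = 0.0436, 0.0391 and 0.0349). The call of MRPL47 was lost without CTR replicate 2 (adjusted p = 0.0851) or 3 (0.137) and without any single miR-8485 library (0.0513 to 0.137).

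In the stalk, MRPL10 rose and MRPL12, which also binds the mitochondrial RNA polymerase, showed 0.35 ± 0.12 (adjusted p = 0.0380). MRPL12 shares 69.5% of its exonic bases with other genes, the largest part with an unnamed gene of the annotation (ENSG00000262660). The call of MRPL12 was lost after rescaling to TPM (0.24, adjusted p = 0.125), with the length trend (0.14, 0.264) or the GC trend removed (0.21, 0.120), and without CTR replicate 2 (0.28, 0.112), CTR replicate 3 (0.34, 0.0914) or miR-8485 replicate 1 (0.22, 0.0772). MRPL11, the other protein at the stalk, showed -0.04 (adjusted p = 0.675). None of the 5 genes of the central protuberance, MRPL38, MRPL40, MRPL46, MRPL48 and MRPL58, passed the test at an adjusted p of 0.05, with log2 fold changes from -0.21 to 0.27. With other scalings, MRPL40 passed it as higher under median-of-ratios scaling (0.23, adjusted p = 0.0489) and MRPL48 as lower under TPM. MRPL58, which releases stalled chains as a peptidyl-tRNA hydrolase, measured 39.4, 39.4 and 34.8 FPKM in CTR and 41.1, 38.2 and 40.4 with the mimic (0.08 ± 0.06, adjusted p = 0.318). Its groups overlapped.

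The 3 paralogs of bacterial protein S18, which take different places in the ribosome, differed in direction. MRPS18A fell, from 21.1, 21.0 and 22 FPKM in CTR to 17.3, 19.6 and 15.2 (log2 fold change -0.31 ± 0.09, adjusted p = 0.0193). MRPS18B rose, from 54.8, 53.9 and 51.0 to 65, 65.2 and 63.4 (0.28 ± 0.04, adjusted p = 0.00110). MRPS18C measured 3.76, 3.46 and 3.43 and then 3.59, 3.29 and 3.22, with overlapping groups (-0.07 ± 0.08, adjusted p = 0.425).

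The fall of MRPS18A was not past the threshold without CTR replicate 3 (adjusted p = 0.0600) or without miR-8485 replicate 1 (adjusted p = 0.0511). It shares 50.9% of its exonic bases with other genes, and MRPS18C shares 40.2%. The largest parts are with RSPH9 and ABRAXAS1, each on the other strand. Both MRPS18A and MRPS18B carry the YY1 core printed above. Over all members, 10 of 19 tested genes with that core rose and 3 fell, and 20 of 49 without it rose and 6 fell, where 29.1% of tested genes rose and 30.5% fell. The counts were 5 and 3 after rescaling to TPM in genes with the core and 14 and 13 in those without it, and with the length trend removed they were 6 and 3, and 14 and 12. The level of YY1 itself showed a log2 fold change of 0.02 ± 0.05 (adjusted p = 0.760).

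Where a member shared its start region with another gene and both were called, the pair moved together in all cases but MRPL57 and SKA3. MRPL13 and MTBP both fell (log2 fold change -0.32 and -0.54, adjusted p = 0.0155 and 0.0217). MRPL47 and NDUFB5 (0.14 and 0.40, adjusted p = 0.0436 and 3.4e-04) both rose, as did MRPL49 and FAU (0.29 and 0.47, adjusted p = 0.00217 and 0.00335). How often unrelated pairs of called genes move together was not tested. MRPL36 and NDUFS6, a subunit of complex I, start 41 bases apart and both rose, by 0.39 (adjusted p = 0.00156) and 0.45 (adjusted p = 0.00279). So did MRPL43 and TWNK, the mitochondrial DNA helicase, by 0.37 (adjusted p = 5.9e-04) and 0.71 (adjusted p = 4.3e-05). MRPL43 shares 38.1% of its exonic bases with other genes, the largest part with SEMA4G.

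MRPL57 and SKA3, a kinetochore gene 106 bases away, went in opposite directions. MRPL57 rose while SKA3 fell from a mean of 15.2 to 8.96 FPKM (log2 fold change -0.75, adjusted p = 1.4e-04). MRPL18 showed 0.10 (adjusted p = 0.0794) where TCP1, a chaperonin subunit 109 bases away, fell (log2 fold change -0.38, adjusted p = 1.2e-04).

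The fold change was weakly related to gene length, over the members as over all tested genes. Short genes are compared here with genes of like length. The median length of the members was 2539 bases, and tested genes shorter than this had a median log2 fold change of 0.20, against -0.05 for longer ones. The 38 shorter members had a median of 0.15 and the 39 longer ones 0.10. In 10 bins of gene length, 42 of 77 members lay above the median of all genes in their bin. Weighted by the members in each bin, 35.1% of all tested genes rose and the bin medians averaged 0.09, where 42.9% of the members rose with a median of 0.14. Across genes, which are not independent replicates, Pearson's r of fold change with log2 length was -0.20 over the members and -0.18 over all tested genes. Spearman's rho was -0.15 and -0.21. With the percent of G and C bases in the exons, Pearson's r was 0.25 and 0.13. The part of length and base composition in the counts above was not tested beyond the fits with each trend removed.

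**Figure D4:**
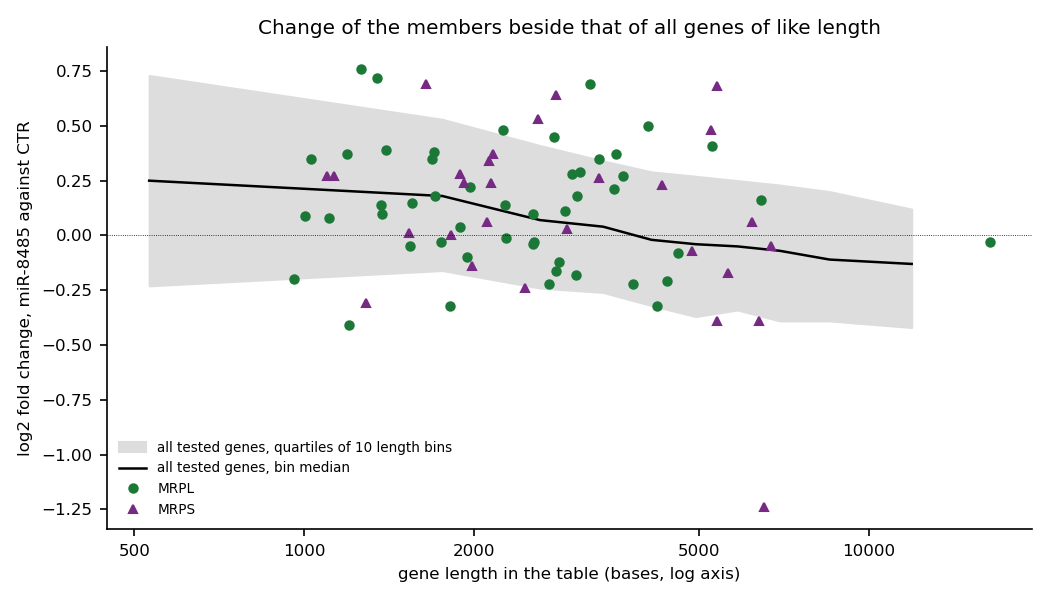
Log2 fold change of the MRPL genes (circles) and MRPS genes (triangles) against gene length (log axis), over the median (line) and quartiles (grey) of all tested genes in 10 bins of length. The line falls from 0.25 in the shortest bin to -0.13 in the longest, and 42 of the 77 members lie above the median of their bin. MRPS27 lies far below the grey band.

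Genes that serve the mitochondrial ribosome rose in part as well. Among 18 translation factors, 8 rose (44.4%, against 29.1% of all tested genes) and 1 fell (median log2 fold change 0.23). With TPM, 5 rose (27.8%, against 21.2%) and 3 fell (16.7%, against 38.3%). METAP1D, which removes the first methionine, showed 0.63 (adjusted p = 1.3e-04), the GTPase GUF1 0.55 (adjusted p = 2.3e-04) and the deformylase PDF 0.47 (adjusted p = 0.0316). The call of PDF was lost after rescaling to TPM (0.35, adjusted p = 0.110), with the length trend removed (0.26, 0.144), and without CTR replicate 2 (0.38, 0.0936), CTR replicate 3 (0.38, 0.0996) or miR-8485 replicate 3 (0.35, 0.0971). GFM1, the elongation factor that moves the ribosome along the mRNA, fell from a mean of 6.15 to 4.53 FPKM (-0.44, adjusted p = 0.00388). Of 5 ribosomal subunits with other symbols, CHCHD1 was called higher (0.36, adjusted p = 0.0143) and DAP3 lower (-0.15, adjusted p = 0.0483). CHCHD1 lost its call after rescaling to TPM (0.25, adjusted p = 0.0839), with the length trend removed (0.18, 0.0696), and without CTR replicate 3 (0.32, with the adjusted p just above the threshold) or miR-8485 replicate 1 (0.33, 0.0502). DAP3 lost its call under median-of-ratios scaling (-0.14, adjusted p = 0.0613), with the length trend removed (-0.13, 0.0665), and without CTR replicate 1 (0.0860) or 3 (0.0868) or any single miR-8485 library (0.0817 to 0.118).

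Of 28 tested genes for assembly of the ribosome and modification of its RNA, 17 rose (60.7%) and 3 fell (10.7%), with a median of 0.26. With TPM, 11 rose (39.3%, against 21.2% of all tested genes) and 5 fell (17.9%, against 38.3%). RCC1L, an assembly factor, rose from a mean of 12.8 to 25.1 FPKM (log2 fold change 0.97 ± 0.06, adjusted p = 1.7e-05). RBFA, which binds the small subunit as it matures, showed 0.86 (adjusted p = 4.0e-05) and the rRNA methyltransferase MRM1 0.75 (adjusted p = 4.0e-04). FASTKD2 and DHX30, RNA-binding proteins of mitochondrial RNA granules, and MTERF3, which acts in assembly of the large subunit, fell. Their log2 fold changes were -0.74, -0.27 and -0.31 (adjusted p = 3.0e-04, 0.00805 and 0.0153). MTERF3 lost its call with the GC trend removed (-0.21, adjusted p = 0.0558) and without miR-8485 replicate 3 (-0.28, adjusted p = 0.0503).

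Of 10 tested genes for transcription of the mitochondrial genome and its control, 5 rose and 3 fell, and 4 and 3 after rescaling to TPM. On so few genes these shares are coarse beside the 29.1% and 30.5% of all tested genes. TFAM, which packages mitochondrial DNA and starts its transcription, fell from a mean of 13.4 to 7.87 FPKM (log2 fold change -0.76 ± 0.05, adjusted p = 2.6e-05). GABP and NRF1 bind promoters of nuclear genes for mitochondria. GABPB1, a subunit of GABP, and NRF1 fell as well (log2 fold change -0.61 and -0.46, adjusted p = 6.2e-04 and 0.0141). GABPA, the other subunit of GABP, did not pass the test (0.11, adjusted p = 0.278). The nuclear receptor ESRRA, the mitochondrial transcription factor TFB2M and the coactivator PPRC1 rose, by 0.70, 0.61 and 0.33 (adjusted p = 1.2e-04, 2.9e-05 and 0.00842).

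By median, the 3 comparison lists rose by more than the members or by a similar amount. Of 79 genes of the cytosolic ribosome, 73 rose (92.4%) and 0 fell, where 29.1% and 30.5% of all tested genes did. The median log2 fold change of this list was 0.47 (0.35 after rescaling to TPM). Of 76 nuclear subunits of oxidative phosphorylation tested, 44 rose (57.9%) and 4 fell (5.26%), with a median of 0.25. After rescaling to TPM, 25 rose (32.9%, against 21.2%) and 5 fell (6.58%, against 38.3%), with a median of 0.14. With the length trend removed, 33 rose (43.4%, against 29.2%) and 7 fell (9.21%, against 30.1%), with a median of 0.13. Of the 13 protein-coding genes of the mitochondrial genome, which mitochondrial ribosomes translate, 4 rose and 0 fell, with a median of 0.23. The share that rose, 30.8%, was near the 29.1% of all tested genes. With the length trend removed, none of the 13 passed the test in limma, and with TPM 1 did. Their median was -0.33 in CTR replicate 1 and 0.22 and 0.10 in the other control libraries, so that the controls spread over more than the change.

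**Figure D5:**
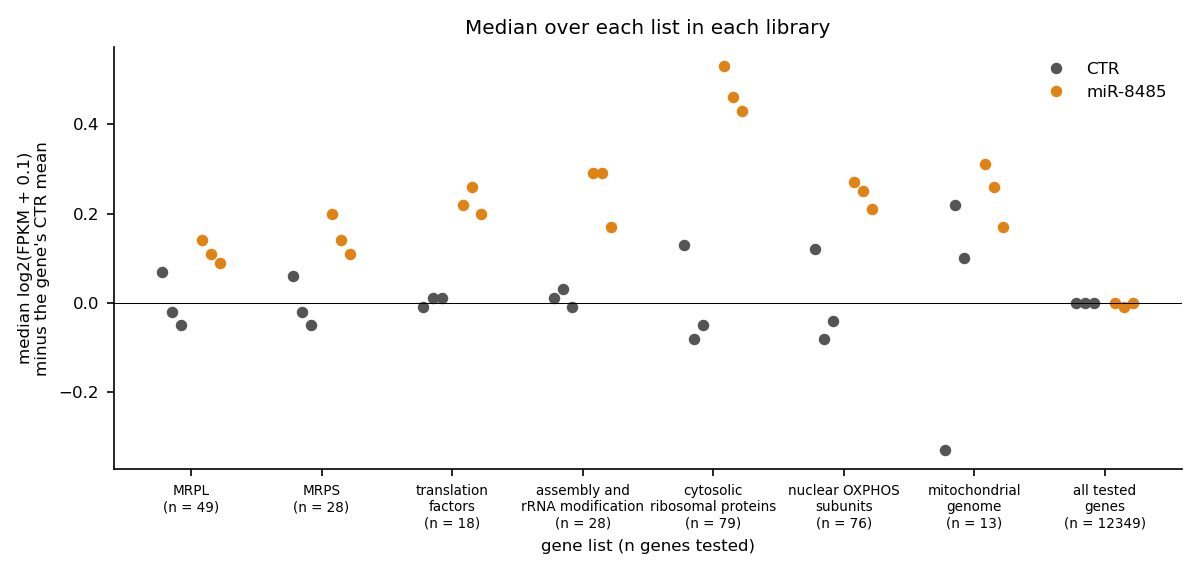
Median over each gene list of log2(FPKM + 0.1) minus the mean of the gene in CTR, in each library (CTR grey, miR-8485 orange). The MRPL and MRPS medians are at 0.09 to 0.20 in the miR-8485 libraries and -0.05 to 0.07 in CTR, where those of the cytosolic ribosomal protein genes are at 0.43 to 0.53 and -0.08 to 0.13.

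Copies of these genes elsewhere in the genome added little. Of 77 other entries with MRPL or MRPS symbols, 75 were pseudogenes, and they held 0.248% as many fragments as the members. A mean of at least 1 FPKM was reached by 1 of them. Fragments that map equally well to a gene and its copy can be lost or split in counting, and this was not measured.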

How the data were processed

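RNA-seq was performed on 3 control and 3 miR-8485 libraries of HCT116 cells. The authors prepared libraries with a VAHTS kit, used fastp for trimming, HISAT2 (2.0.5) for mapping to hg38 and featureCounts (1.5.0-p3) for counting per gene, and deposited FPKM, with no further scaling. No column of values was left without a sample. Every FPKM value above 0 was a whole multiple of 1 fragment (tolerance 0.05), which gave the fragments.

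Here log2(FPKM + 0.1) was tested with limma (version 3.58.1, R 4.3.3) with a variance trend, two-sided, for genes whose mean FPKM was 1 or more, with Benjamini-Hochberg adjustment over them. Calls were made at an adjusted p under 0.05. Standard errors are those of limma. Fold changes on this scale understate changes of low genes. The fit was checked on simulated data. Counting sets the precision of low genes, whose fragments are given.

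The genes, their lists and the tests were chosen with earlier results of these data known. Named with values were, in each subunit, up to 6 called genes with the largest rise and up to 6 with the largest fall whose groups do not overlap, the 3 with the highest and lowest levels, those below the filter, MRPS30, MRPS18A, MRPS36 and MRPL58, and of each pathway list at most 3 in each direction. Other genes named were chosen after their values were seen. 3′ UTRs and exon overlaps came from GENCODE release 44 (GRCh38), promoters from RefSeq. The site of 1 gene is not reported here. Alternatives were other pseudocounts, filters, scalings, length and GC trends removed, no variance trend, a replicate block, voom on recovered fragments, libraries left out, a stricter threshold and subunits by place.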

Additional observations from a re-analysis of the deposited data

How the results depend on the processing

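Rescaling to TPM and removal of the length trend changed the counts most. With TPM, 21 members rose and 19 fell (large subunit 12 down, small subunit 8 up), with medians of 0.02 (members), 0.02 (large) and 0.03 (small). With the length trend removed, 19 members fell (12 in the large subunit), 9 small-subunit genes rose, and the medians were 0.04, 0.02 and 0.06. TPM shifts the median of all genes by -0.12, and the cause of the length trend was not tested. Rises in the small subunit numbered 9 with no filter on low values and 9 at an adjusted p under 0.01. The small-subunit median was 0.23 at a mean FPKM of at least 5, 0.23 with voom and 0.24 by place in the ribosome.

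The difference between subunits, -0.01, was -0.03 with a pseudocount of 1, 0.02 with no filter, -0.13 at a mean FPKM of at least 5, -0.04 with the length trend removed, -0.09 with voom and -0.13 by place. Leaving out 1 library gave -0.05 (without miR-8485 replicate 2) to 0.00, 24 to 39 members up, 9 to 13 down and member medians of 0.10 to 0.20.

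MRPL58 turned to -0.04 with TPM and -0.13 with the length trend removed. MRPS30 turned to -0.06 with TPM and was called higher with the GC trend removed (0.19, adjusted p = 0.0154). MRPS36 turned to -0.11 with TPM and, as a called fall, to -0.17 with the length trend removed (adjusted p = 0.0303), and ranged from -0.05 (without CTR replicate 3) and -0.03 (without miR-8485 replicate 1) to 0.03 when 1 library was left out. Of 31 named genes with fits, 19 kept direction and side of the threshold under every alternative.

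Same-numbered libraries of the groups deviated with correlations of 0.07, 0.03 and -0.06, against -0.09 to 0.06 for differently numbered ones. Over all tested genes no pairing by number was seen, and pairing in a part of the genes was not tested. A replicate block gave 34 members up and 13 down.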
